A study of Homo sapiens with 12 samples.

Results

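Fatty acid desaturases and elongases were followed in human fat cells in culture: the stearoyl-CoA desaturases SCD and SCD5, the desaturases FADS1, FADS2 and FADS3, and the elongases ELOVL1, ELOVL2, ELOVL4, ELOVL5 and ELOVL6. They were taken by gene symbol, 10 of the 28901 named genes in the count table, and all 10 were found there. The cells were ASC52telo, an adipose-derived mesenchymal stem cell line immortalized with hTERT, which had been carried through 14 days of adipocyte differentiation before RNA-seq. All groups came from cells transduced with a lentivirus for 1 shRNA and ZsGreen and sorted for ZsGreen. Per the paper's culture methods, these cells were given insulin and dexamethasone throughout differentiation. Isobutylmethylxanthine and rosiglitazone (an agonist of the adipocyte nuclear receptor PPARγ) were in the first medium only and not in the maintenance medium that followed. One shRNA was a scramble control and the other was against linc-ADAIN, a long intergenic non-coding RNA of adipose tissue (KD), and each was sampled without LPS (bacterial lipopolysaccharide) or with 100 ng/mL LPS for 4 h. Each of the 4 groups had 3 libraries. The paper gives the sequencing experiment as run once in triplicate, so p-values measure only the spread between libraries, which may be technical. linc-ADAIN itself was not analysed here, so the knockdown was not checked in these libraries and is as labelled.

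Desaturases place double bonds in fatty acyl-CoA at the endoplasmic reticulum, taking electrons through cytochrome b5, and elongases carry out the first step of a cycle that lengthens the chain. SCD makes oleate and palmitoleate, the main monounsaturated fatty acids of stored triglyceride, and ELOVL6 lengthens palmitate to stearate ahead of it. FADS2 and FADS1 act in turn on the dietary precursors linoleate and alpha-linolenate to form arachidonate and eicosapentaenoate, with ELOVL5 lengthening the intermediate between them. In fat cells and liver, SREBP-1c, encoded by SREBF1, and the oxysterol receptor LXRα, encoded by NR1H3, are known regulators of these genes.

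FADS1, FADS2 and FADS3 lie together on chromosome 11 (GRCh38, GENCODE 44). FADS1 spans 61799627 to 61829318 on the minus strand, FADS2 spans 61792980 to 61867354 on the plus strand, and FADS3 spans 61873519 to 61892051 on the minus strand. The canonical transcripts of FADS1 and FADS2 are read away from each other. Longer annotated FADS2 transcripts overlap FADS1 on the other strand, and also FEN1 on the same strand, whose mean level was 13.3 CPM (counts in a library scaled to 1000000) over the 12 libraries. The kit kept strand, but whether the counting used it is not given in the sources used here, so reads in these overlaps are uncertain. SCD lies at 100347233 to 100364826 on chromosome 10 and ELOVL5 at 53267398 to 53349179 on chromosome 6. SCD5 and ELOVL6 are on chromosome 4, ELOVL2 and ELOVL4 on chromosome 6 and ELOVL1 on chromosome 1. The SCD pseudogene SCDP1 had 0 to 8 counts in a library, against at least 37289 for SCD.

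The starts of 4 genes that fell together in KD are shown. Each runs 5′ to 3′ on the gene's strand from 250 bases before the start site to 30 bases after it (RefSeq, GRCh38.p14). Capitals mark CCAAT (or ATTGG, its other strand) and the E-box CACGTG. They are not to be read as sites of SREBP-1c or LXRα, and no LXRα element was searched for.
FADS1, chr11:61816974-61817253, minus strand: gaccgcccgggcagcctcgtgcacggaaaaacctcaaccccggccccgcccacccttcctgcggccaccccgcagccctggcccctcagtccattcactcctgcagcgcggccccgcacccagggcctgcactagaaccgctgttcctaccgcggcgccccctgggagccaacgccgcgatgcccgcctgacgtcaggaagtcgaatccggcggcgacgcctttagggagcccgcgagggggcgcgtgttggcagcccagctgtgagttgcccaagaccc
FADS3, chr11:61891516-61891795, minus strand: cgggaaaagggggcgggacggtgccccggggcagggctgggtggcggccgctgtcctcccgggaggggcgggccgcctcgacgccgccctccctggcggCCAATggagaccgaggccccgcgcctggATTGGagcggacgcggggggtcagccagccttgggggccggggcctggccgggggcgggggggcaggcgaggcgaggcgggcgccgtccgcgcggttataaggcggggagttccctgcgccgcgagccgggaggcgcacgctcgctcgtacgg
SCD, chr10:100346983-100347262, plus strand: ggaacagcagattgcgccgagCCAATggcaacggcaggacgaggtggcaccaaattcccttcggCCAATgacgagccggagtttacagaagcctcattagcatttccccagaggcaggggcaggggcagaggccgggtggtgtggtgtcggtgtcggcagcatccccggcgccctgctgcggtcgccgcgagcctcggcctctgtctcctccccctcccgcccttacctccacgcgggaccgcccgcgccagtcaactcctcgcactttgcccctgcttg
ELOVL5, chr6:53348921-53349200, minus strand: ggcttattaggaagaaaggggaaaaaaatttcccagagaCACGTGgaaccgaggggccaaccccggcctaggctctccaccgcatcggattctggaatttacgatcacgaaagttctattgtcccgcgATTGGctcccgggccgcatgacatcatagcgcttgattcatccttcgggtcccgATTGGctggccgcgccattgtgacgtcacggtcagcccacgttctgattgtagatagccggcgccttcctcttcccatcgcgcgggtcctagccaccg
Counting the start site as 0, SCD held CCAAT at -229 and -186, and FADS3 held CCAAT at -151 and ATTGG at -123. ELOVL5 held ATTGG at -122 and -68, with an E-box at -211. The FADS1 window held neither motif, and nor did that of ELOVL6, which also fell and is not shown. Promoter windows of 300 bases at the canonical start are given for 9 of the 10 genes, without FADS2. CCAAT on either strand was in 6 of the 9, against 34.6% of 34943 windows of all genes. It was found in 3 of the 5 genes of these that fell in KD (FADS3, SCD and ELOVL5) and also in SCD5 and ELOVL1, which did not pass the test, and in ELOVL4. The E-box was in ELOVL4 and ELOVL5, against 7.23% of all windows. The GC box GGGCGG was in 8 of 9, ELOVL5 being the exception, against 44.9%. The sterol regulatory element TCACNCCAC was in 0 of 9, against 1.12%. Such matches describe letters in these windows and no binding.

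The libraries held 28381782 to 53837400 counts on named genes, and values are CPM after TMM scaling, a correction for the composition of libraries. LPS acted as labelled: all 9 of a list of LPS-induced cytokine and NF-κB genes rose in scramble and in KD. Of the adipocyte markers, ADIPOQ (adiponectin), FABP4, PLIN1, PLIN4, CIDEC, LIPE and PNPLA2 were detected in every library, at 9.14 CPM or more, whereas LPL stayed at or below 2.36 CPM and LEP at or below 0.490 CPM. The stromal genes DCN and PDGFRA were high in every group, at 716 CPM or more, whereas CD34 stayed at or below 1.85 CPM and DLK1 had no counts. The macrophage genes PTPRC and MRC1 and the endothelial gene CDH5 stayed at or below 0.316 CPM, whereas other genes of these lists were detected: CD68 at 23.8 to 67.7 CPM, CD163 at 3.15 to 82.5, and the endothelial genes PECAM1, VWF and TEK up to 7.80, 11.1 and 9.83 CPM.

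The desaturases and elongases took 0.574% to 0.862% of all counts in scramble, 0.810% to 0.867% in scramble with LPS, 0.268% to 0.444% in KD and 0.222% to 0.328% in KD with LPS. The KD libraries were all below the scramble libraries, with and without LPS. SCD made up most of this share. In scramble, replicate 3 stood above the other libraries for SCD, FADS1 and FADS2. Several results are therefore also given without it, or as a range over single libraries left out.

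Per kilobase of the canonical transcript, SCD was the most abundant in scramble, at 881 ± 245 CPM per kb (SD, n = 3). ELOVL5 followed at 341 ± 36.8 CPM per kb and FADS1 at 177 ± 51.3. FADS3, at 112 ± 13.4 CPM per kb, and FADS2, at 77.1 ± 23.4, had overlapping ranges. ELOVL1 lay at 49.8 ± 1.58 CPM per kb, ELOVL6 at 10.7 ± 0.942, SCD5 at 6.94 ± 1.12 and ELOVL4 at 0.595 ± 0.0911, and no other neighbours in this order overlapped. ELOVL2 had no counts in 11 libraries and 5 counts in KD replicate 1. A count of 0 there allows at most 0.105 CPM (3 counts in the shallowest library, for counting error only), and ELOVL2 was too low to test, which leaves 9 tested genes.

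In KD the order by canonical length changed at FADS1. It was the third most abundant gene in scramble and in scramble with LPS, and in KD it came after FADS3 and ELOVL1 as well, with a range that overlapped ELOVL1. In KD with LPS it came to 32.8 ± 4.21 CPM per kb, below ELOVL1, and its range took in that of FADS2 (34.9 ± 0.827). SCD and ELOVL5 kept the first and second places in every group. FADS1 also had a lower mean than ELOVL1 in KD and in KD with LPS by the longest transcript and by summed exon length. Its place against FADS3 and FADS2 depends on the length: in KD, FADS1 stayed above FADS3 by the longest transcript (47.4 against 20.9 CPM per kb) and by summed exon length (20.2 against 17.6), and in KD with LPS it stayed above FADS2 (32.8 against 21.3, and 14.0 against 10.2). The order of FADS3, FADS2 and ELOVL1 likewise depends on the length.

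**Figure D1:**
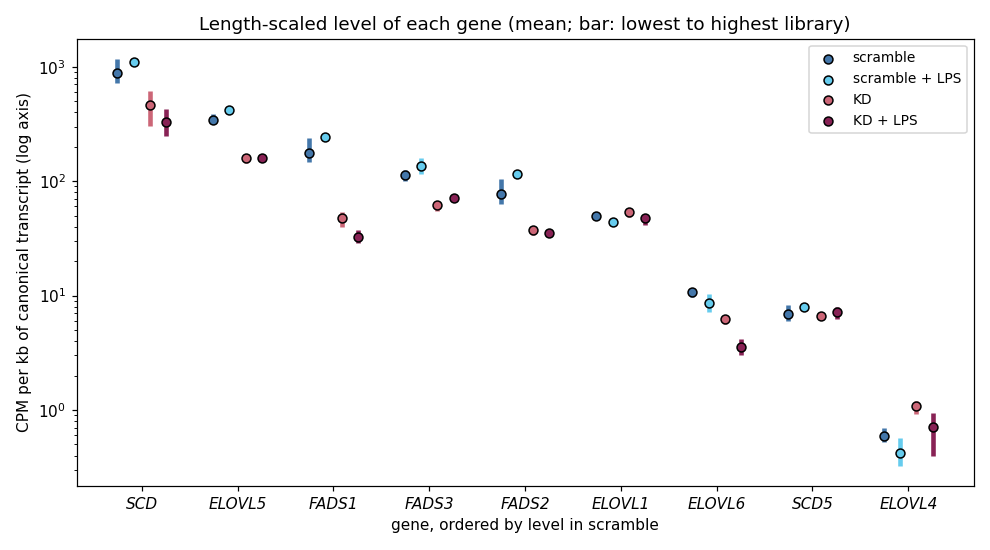
Level of 9 genes in CPM per kb of canonical transcript (log axis), as the mean (point) and the range from lowest to highest library (bar) of the 3 libraries in each of 4 groups. SCD and ELOVL5 lead in every group, and FADS1 drops from 177 CPM per kb in scramble to 47.4 in KD and 32.8 in KD with LPS.

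Without LPS, 6 of the 9 tested genes fell in KD against scramble: FADS1, FADS2, FADS3, SCD, ELOVL5 and ELOVL6. ELOVL4 was the only one higher, and SCD5 and ELOVL1 did not pass the test. Calls used edgeR's quasi-likelihood test with Benjamini-Hochberg adjustment over all 16217 genes tested, at an adjusted p under 0.05, by which 15.1% of all tested genes were lower and 12.1% higher. The median log2 fold change was -0.85 over the 9 genes and 0.02 over all genes. The 6 genes were also those whose KD libraries all lay below all scramble libraries, as 22.5% of tested genes did. FADS1, FADS2 and ELOVL5 fell at least 2-fold, against 3.49% of all genes.

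With LPS in both arms the same 6 genes fell and none rose, against 14.2% lower and 12.7% higher of 15981 tested genes. Their KD libraries again all lay below their scramble libraries, as for 20.6% of genes. All of them but FADS3 fell at least 2-fold, against 3.90% of genes. The median log2 fold change was -1.29, against 0.03 over all genes. In bulk RNA, fewer cells of a type and less RNA per cell cannot be told apart.

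FADS1, the delta-5 desaturase, had the largest fold change of the 9 tested genes. It was measured at 637, 649 and 1031 CPM in the scramble libraries and at 234, 213 and 173 CPM in KD. With LPS it was at 1114, 1005 and 1073 CPM in scramble and 162, 141 and 125 CPM in KD. Every KD value lay below every scramble value by a wide margin. The log2 fold change was -1.90 (SE 0.18; adjusted p = 8.95e-06, edgeR's quasi-likelihood test with Benjamini-Hochberg adjustment) without LPS, or 3.73-fold lower. With LPS it was -2.90 (SE 0.10; adjusted p = 3.51e-10, same edgeR test), or 7.45-fold lower, and only 340 of the 15981 tested genes had a lower log2 fold change. Without LPS, leaving out single libraries gave -2.02 to -1.64 (adjusted p up to 0.000305, same edgeR test).

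FADS2, the delta-6 desaturase that precedes FADS1 in the pathway, fell less. Its scramble libraries held 196, 197 and 322 CPM and its KD libraries 121, 104 and 120 CPM. With LPS these were 340, 358 and 370 CPM against 108, 110 and 105 CPM. The KD libraries with LPS were tightly grouped, and the scramble libraries without LPS were not. The log2 fold changes were -1.05 (SE 0.17; adjusted p = 0.000546, edgeR) without LPS and -1.72 (SE 0.07; adjusted p = 2.33e-09) with LPS. Leaving out scramble replicate 3 gave -0.78 in the first of these, still past the threshold.

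Because FADS1 fell more than FADS2, their ratio moved. FADS1 had 3.24, 3.29 and 3.20 times the counts of FADS2 in the scramble libraries, including replicate 3, in which both genes were high. In KD the ratio was 1.94, 2.05 and 1.44, and with LPS it was 3.28, 2.81 and 2.90 in scramble against 1.50, 1.28 and 1.19 in KD. The KD ratios were lower than all scramble ratios in both settings, by 1.81-fold without LPS and 2.27-fold with LPS. The exact two-sided permutation test gave p = 0.1 for each, the smallest value that 3 libraries against 3 allow (adjusted p = 0.213 over 32 ratio tests). This ratio does not depend on how libraries were scaled, but it does rest on reads being split correctly where the genes overlap.

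FADS3, which desaturates sphingoid bases rather than the polyunsaturated precursors, lies beside FADS2 and fell by a similar amount in both settings. It was at 178, 200 and 226 CPM in scramble and 117, 97.8 and 118 CPM in KD. In the LPS groups it was at 205, 285 and 232 CPM against 118, 139 and 122 CPM. The log2 fold changes were -0.85 (SE 0.10; adjusted p = 8.29e-05, edgeR) and -0.93 (SE 0.11; adjusted p = 2.89e-05).

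SCD, the main stearoyl-CoA desaturase of adipocytes, was at 3786, 3974 and 6098 CPM in scramble and 3206, 2501 and 1595 CPM in KD. The groups did not overlap, but KD replicate 1 came near scramble replicate 1, and SCD varied more within both groups than FADS3 or ELOVL5. With LPS the values were 5885, 5562 and 6002 CPM in scramble against 2258, 1609 and 1311 CPM in KD. The log2 fold changes were -0.92 (SE 0.22; adjusted p = 0.00943, edgeR) and -1.75 (SE 0.15; adjusted p = 8.59e-07). Without scramble replicate 3 the first was -0.68 (adjusted p = 0.0448), and without KD replicate 3 it was -0.69 (adjusted p = 0.0238).

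SCD5, the other human stearoyl-CoA desaturase, was at 24.9, 20.0 and 18.4 CPM in scramble and 22.0, 19.9 and 19.1 CPM in KD, and the groups overlapped. Its log2 fold changes were -0.05 (SE 0.13) without LPS and -0.15 (SE 0.12) with LPS, and neither passed the test (adjusted p = 0.814 and 0.416, edgeR). It had 640 to 1314 counts a library, and its standard errors were smaller than those of SCD. SCD had 152, 199 and 332 times the counts of SCD5 in the scramble libraries and 146, 125 and 83.6 times in KD.

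**Figure D2:**
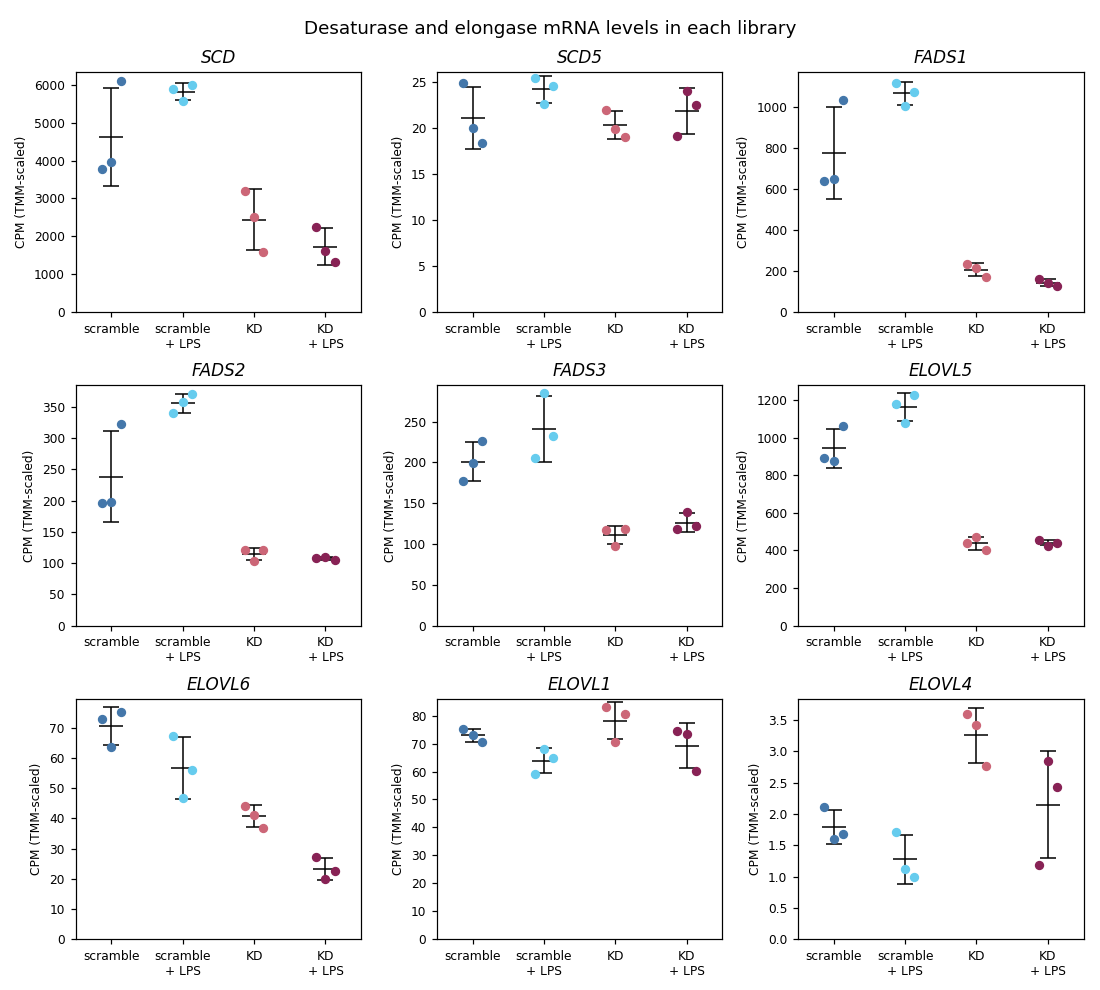
TMM-scaled CPM of 9 genes in each of the 12 libraries (points), with the group mean and SD (black, n = 3), on axes that start at 0. FADS1, FADS2, FADS3, SCD, ELOVL5 and ELOVL6 sit lower in both KD groups than in the matching scramble groups, and scramble replicate 3 is the upper point for SCD, FADS1 and FADS2.

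Among the elongases, ELOVL5, which lengthens polyunsaturated chains between the FADS2 and FADS1 steps, was at 894, 875 and 1060 CPM in scramble and 439, 473 and 401 CPM in KD. The LPS groups held 1181, 1081 and 1226 CPM in scramble and 454, 426 and 442 CPM in KD. Both KD groups were narrow and far below scramble. The log2 fold changes were -1.10 (SE 0.09; adjusted p = 4.65e-06, edgeR) and -1.40 (SE 0.07; adjusted p = 1.05e-08).

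ELOVL6, the elongase of palmitate, was at 73.1, 63.5 and 75.2 CPM in scramble and 44.1, 41.1 and 36.8 CPM in KD. After LPS it was at 67.4, 46.9 and 56.1 CPM against 27.2, 19.9 and 22.7 CPM. It was lowest where KD and LPS were combined, and those libraries lay below all others. The log2 fold changes were -0.79 (SE 0.10; adjusted p = 8.76e-05, edgeR) and -1.29 (SE 0.15; adjusted p = 1.57e-05).

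ELOVL1, an elongase of very long saturated chains, was at 75.4, 73.0 and 70.7 CPM in scramble and 83.3, 70.7 and 80.5 CPM in KD. Its groups overlapped, with log2 fold changes of 0.10 (SE 0.08; adjusted p = 0.413, edgeR) without LPS and 0.12 (SE 0.10; adjusted p = 0.452) with LPS. ELOVL4, which makes the ultra-long chains of retina and skin, was low throughout, with 78 to 111 counts in the scramble libraries. It was at 2.11, 1.60 and 1.68 CPM in scramble and 3.60, 3.42 and 2.77 CPM in KD, a log2 fold change of 0.87 (SE 0.27; adjusted p = 0.0340, edgeR). That call was lost when scramble replicate 2 or 3 or KD replicate 1 or 2 was left out, with adjusted p up to 0.122, and with LPS the libraries overlapped (log2 fold change 0.75, adjusted p = 0.240).

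**Figure D3:**
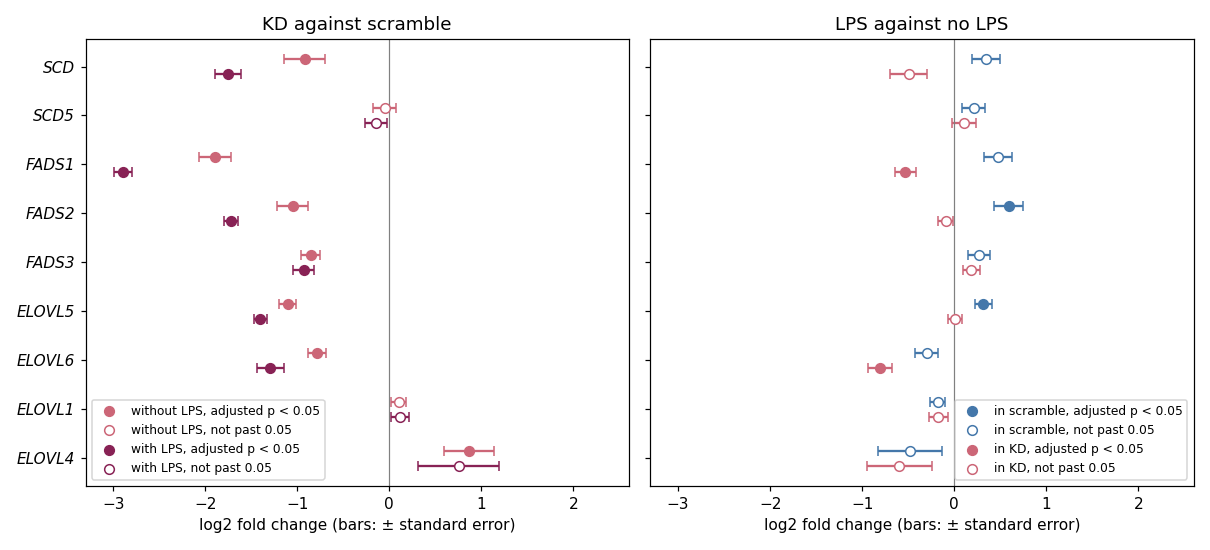
Log2 fold change of 9 genes with its standard error, for KD against scramble (left) and LPS against no LPS (right), with filled points for genes called by edgeR (adjusted p under 0.05). FADS1 lies farthest to the left in KD, at -1.90 without LPS and -2.90 with LPS, and SCD5 and ELOVL1 lie near 0 in both.

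LPS alone changed few of these genes. In scramble, FADS2 (log2 fold change 0.59, SE 0.16; adjusted p = 0.0298, edgeR) and ELOVL5 (0.32, SE 0.09; adjusted p = 0.0403) rose, and none fell. These were 2 of 9 genes, with 5.90% of 15920 tested genes higher and 8.38% lower. FADS1 (0.47, adjusted p = 0.0653, edgeR) and SCD (0.35, adjusted p = 0.162, edgeR) did not pass, and their LPS libraries lay above scramble replicates 1 and 2. Against scramble replicate 3, the LPS libraries lay on both sides for FADS1 and all below for SCD. Without scramble replicate 3, 4 genes rose, FADS1 at 0.74 (adjusted p = 0.000325), SCD at 0.60 (adjusted p = 0.000711), FADS2 and ELOVL5. Without scramble replicate 1, scramble replicate 2 or scramble LPS replicate 3, none rose, and 1 rose without scramble LPS replicate 1 (where ELOVL6 fell) or 2.

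In KD, the genes that fell with LPS were FADS1 (-0.53, SE 0.11; adjusted p = 0.00589, edgeR) and ELOVL6 (-0.81, SE 0.13; adjusted p = 0.000612), 2 of 9 genes. The background was 6.03% lower and 5.32% higher of 16169 tested genes, and none of the 9 rose. SCD was lower by a similar size (-0.50, SE 0.20) and did not pass (adjusted p = 0.157). SCD passed with no filter on low counts (-0.50, adjusted p = 0.00192) and with the replicate number as a block (-0.48, adjusted p = 7.60e-11, edgeR). It also passed without KD replicate 3 (-0.73, adjusted p = 0.00880) and without KD LPS replicate 1 (-0.74, adjusted p = 0.0289). In the other settings SCD did not pass. Among these were DESeq2 (-0.50, adjusted p = 0.421) and all 12 libraries in 1 fit (-0.50, adjusted p = 0.167, edgeR). Another was the fit without KD replicate 1 (-0.25, adjusted p = 0.521, edgeR). FADS2, FADS3 and ELOVL5 had log2 fold changes of -0.09, 0.19 and 0.01.

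The difference between the KD effects with and without LPS was tested as an interaction over the 12 libraries. For FADS1 it was -0.99 on the log2 scale (SE 0.21; adjusted p = 0.0256, edgeR), so the fall in KD was 1.99-fold larger with LPS. FADS1 was the only one of the 9 to pass, where 0.332% of 17173 tested genes were lower and 0.943% higher. Leaving out single libraries gave -1.26 to -0.87 with adjusted p of 0.000386 to 0.0889, and the call was lost without scramble replicate 1 or 2, scramble LPS replicate 1 or 3, KD replicate 1 or 2, or KD LPS replicate 2 or 3. The interactions of SCD (-0.83, SE 0.30; adjusted p = 0.262) and FADS2 (-0.67, SE 0.19; adjusted p = 0.120) had the same sign and did not pass. Without scramble replicate 3, that of FADS2 was -0.95 (adjusted p = 0.000318).

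The ratio of ELOVL6 to ELOVL5 shifted with LPS. It was 0.0817, 0.0726 and 0.0709 in scramble and 0.0571, 0.0434 and 0.0457 after LPS, and it went from 0.101, 0.0870 and 0.0919 to 0.0599, 0.0468 and 0.0513 in KD. The LPS libraries lay below the others in both arms, by 1.55-fold in scramble and 1.77-fold in KD, each with an exact permutation p = 0.1 (adjusted p = 0.213).

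Adipocyte markers moved with these genes in KD. Of the 10 markers, 7 fell without LPS and 8 with LPS, against 15.1% and 14.2% of all tested genes, and none rose. FABP4, the fatty acid carrier, had log2 fold changes of -1.65 and -2.26, ADIPOQ -1.39 and -2.26, and PLIN1, a lipid droplet coat protein, -1.14 and -1.90 (adjusted p from 1.76e-06 to 0.0144, edgeR). Their summed level was 3428, 3895 and 4724 CPM in scramble, 2010, 1534 and 742 CPM in KD, 3928, 4672 and 4227 CPM in scramble with LPS and 1305, 952 and 604 CPM in KD with LPS. Within KD, replicate 1 was the highest library and replicate 3 the lowest both for this sum and for SCD and FADS1. These falls run against the paper, which reports higher adipogenic markers in KD for this shRNA, in these cells and at this day of differentiation. By qPCR and western blot it found more adiponectin, FABP4, perilipin 1, ATGL (encoded by PNPLA2), PPARγ and FASN in KD. The cause of this difference was not tested. The part of adipocyte content in the KD results was not tested.

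Set against these markers within each library, the genes went different ways. The marker sum is led by FABP4 and ADIPOQ (scramble means of 1981 and 919 CPM), so ratios to it mainly follow those genes. The median log2 fold change of the 10 markers in KD was -1.13 without LPS and -1.89 with LPS, against -0.92 and -1.75 for SCD. SCD had 1.10, 1.02 and 1.29 times the summed marker counts in scramble and 1.60, 1.63 and 2.15 times in KD, so that it was higher relative to the markers (1.57-fold, exact permutation p = 0.1, adjusted p = 0.213). With LPS it was again higher in KD, by 1.36-fold without overlap. FADS1 relative to the markers overlapped between scramble and KD without LPS (0.186, 0.167 and 0.218 against 0.117, 0.139 and 0.233). After LPS it was lower in KD without overlap, by 1.59-fold (exact permutation p = 0.1). ELOVL6 relative to the markers was higher in KD without overlap, by 1.74-fold without LPS and 1.93-fold with LPS, and FADS2 overlapped in both.

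**Figure D4:**
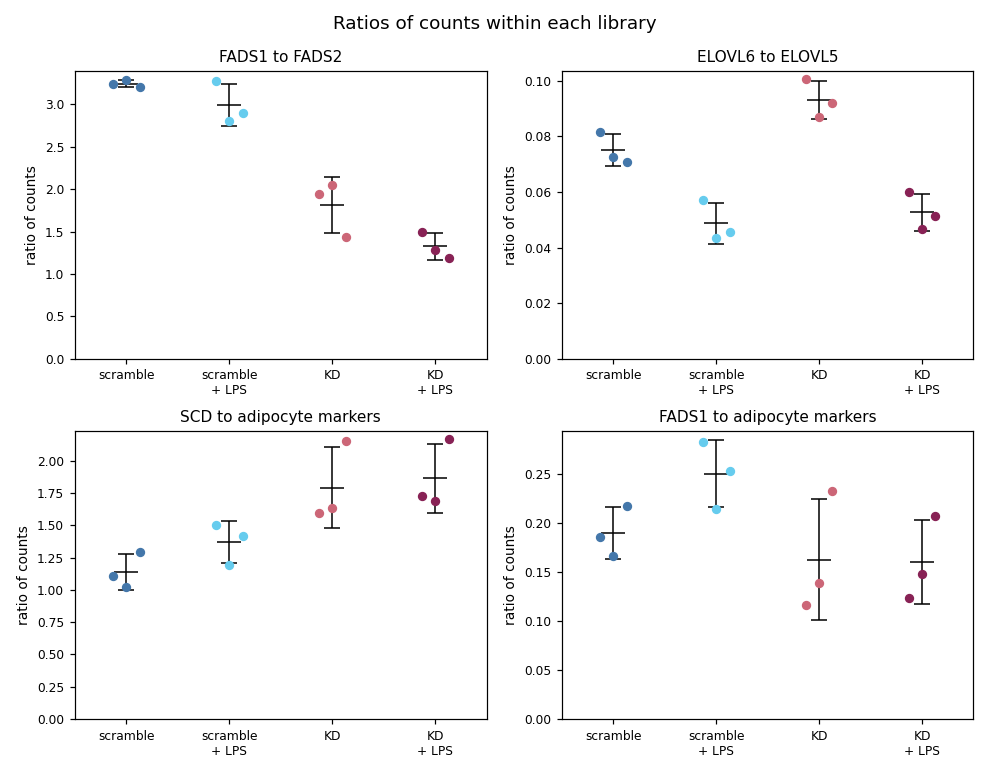
Ratios of counts within each library (points), with group mean and SD (black, n = 3), for FADS1 to FADS2, ELOVL6 to ELOVL5, and SCD and FADS1 to the summed adipocyte markers. FADS1 to FADS2 is 3.20 to 3.29 in scramble and 1.19 to 1.50 in KD with LPS, whereas SCD to the markers is higher in KD.

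Other cell type markers differed between scramble and KD without a common direction. Of 7 tested stromal markers, THY1, ENG and PDGFRB fell in both settings and DCN rose in both. PDGFRA rose without LPS and NT5E with LPS. The sum of the list was 5016 to 6024 CPM in scramble, 6327 to 7200 in KD, 4757 to 5370 in scramble with LPS and 7393 to 8200 in KD with LPS. DCN alone was at 2127 to 3066 CPM in scramble, 4504 to 5328 in KD, 2138 to 2583 in scramble with LPS and 5756 to 6538 in KD with LPS. The rise of the stromal sum thus follows DCN and does not hold for the list as a whole. The sum of the macrophage list was 57.3 to 60.5 CPM in scramble, 88.5 to 117 in KD, 60.9 to 71.9 in scramble with LPS and 79.8 to 108 in KD with LPS. In it CD163 rose, from 3.15 to 5.38 CPM in scramble to 55.1 to 82.5 CPM in KD, CD68 fell, and PTPRC, CSF1R, ADGRE1 and MRC1 stayed at or below 1.48 CPM. The endothelial sum was 23.6 to 27.1 CPM in scramble, 11.8 to 12.3 in KD, 15.3 to 17.0 in scramble with LPS and 8.45 to 13.2 in KD with LPS. In it VWF and TEK fell in both settings and PECAM1 fell with LPS. KDR rose with LPS, from 0.0469 to 0.198 CPM in scramble to 2.02 to 3.94 CPM in KD (log2 fold change 4.89, adjusted p = 3.35e-05, edgeR). The part of these lists in the KD results was not tested.

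The enzymes around the desaturases and elongases were counted from lists. Over all tested genes, 15.1% were lower and 12.1% higher in KD without LPS, and 14.2% lower and 12.7% higher with LPS. In lists this short, a count such as 1 of 4 is not far from these shares. The supply of palmitate and malonyl-CoA, the substrates of elongation, fell most broadly in KD: 6 of 7 genes fell without LPS and 7 of 7 with LPS, with median log2 fold changes of -0.68 and -1.11. FASN, the fatty acid synthase, was at 719, 783 and 822 CPM in scramble and 385, 311 and 324 CPM in KD (log2 fold change -1.18, adjusted p = 2.56e-06, edgeR). The paper reports the other direction for FASN by qPCR and western blot. ACACB, a maker of malonyl-CoA, had log2 fold changes of -1.37 and -2.32. In the electron supply to desaturases 1 of 4 genes fell, CYB5A (cytochrome b5), at -1.09 and -1.46, and CYB5B, its mitochondrial form, rose by 0.28 with LPS (adjusted p = 0.0274, edgeR), against 0.11 without LPS (adjusted p = 0.345).

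Of the elongation cycle partners, which complete the cycle after the elongase, 2 of 6 fell in each setting, HSD17B12 and HACD2 (-0.81 and -0.92), and 1 rose, HACD3 without LPS and HACD1 with LPS. Of the acyl-CoA synthetases, which activate fatty acids, 3 of 5 fell without LPS and 2 with LPS, led by ACSL5 (-2.27 and -2.25). Of 4 acyltransferases that place polyunsaturated chains in phospholipids, 2 fell without LPS and 1 with LPS, and LPCAT3 fell in both (-0.79 and -1.20). Among the relatives of the 10 genes, ELOVL3, an elongase known from brown fat, and DEGS1, which desaturates ceramides, fell in both settings. ELOVL7 was at 0.532 to 1.38 CPM in scramble and 5.11 to 6.44 CPM after LPS (log2 fold change 2.86, adjusted p = 0.000236, edgeR), an elongase whose LPS libraries all lay above the rest, as they also did in KD (3.03). It was the relative that rose in KD with LPS, by 1.51 on the log2 scale (adjusted p = 1.60e-05, edgeR), against 1.33 without LPS (adjusted p = 0.0550).

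Regulators did not move as 1 group: of 12, 3 fell in each setting, and 2 rose without LPS and 3 with LPS. These counts are not far from the shares over all genes, 15.1% lower and 12.1% higher without LPS and 14.2% and 12.7% with LPS. SREBF1 was at 119, 135 and 147 CPM in scramble and 59.4, 51.0 and 60.6 CPM in KD (log2 fold change -1.23, adjusted p = 2.80e-06, edgeR), and -1.42 with LPS. NR1H3 (-1.08 and -1.35) and PPARG, the PPARγ gene (-0.87 and -1.59), also fell. For PPARγ the paper reports higher mRNA and protein in cultured KD cells, and lower gene expression in KD implants taken from mice. SREBF2, which encodes the SREBP of cholesterol synthesis, did not pass (0.07 and -0.08, adjusted p = 0.556 and 0.531).

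**Figure D5:**
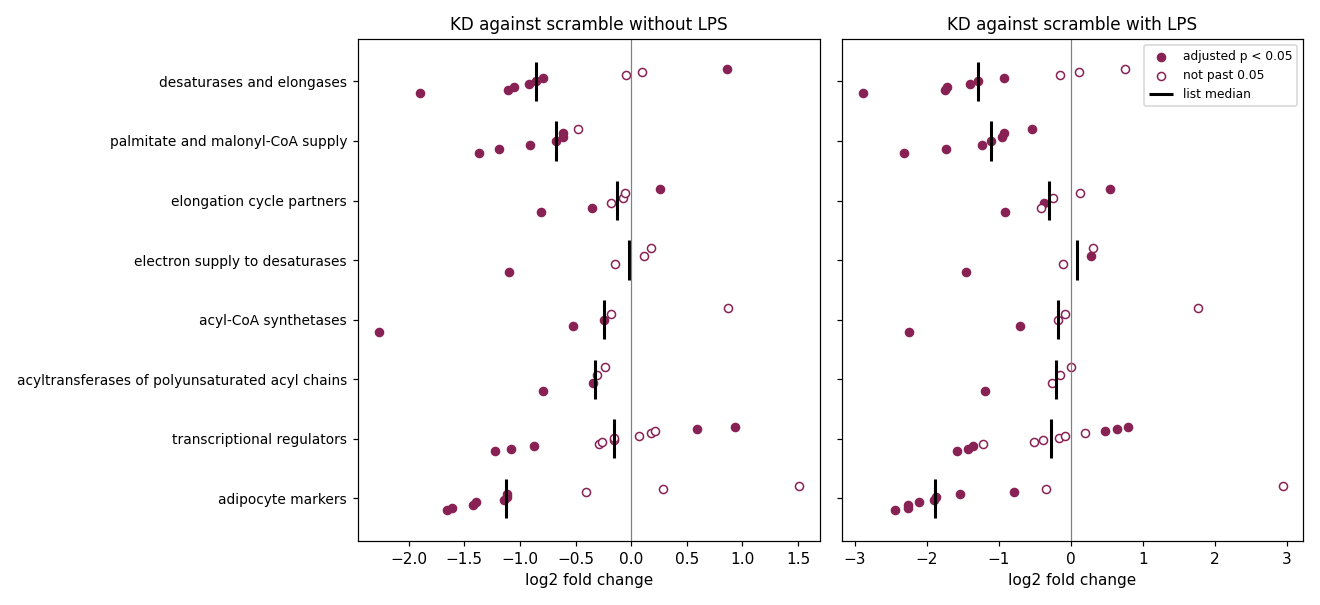
Log2 fold change in KD against scramble without LPS (left) and with LPS (right) for the genes of each list (points, filled where edgeR called the gene), with the list median (black line). The lowest medians are those of the desaturases and elongases (-0.85 and -1.29), the palmitate and malonyl-CoA supply (-0.68 and -1.11) and the adipocyte markers (-1.13 and -1.89). All other medians are also below 0, except that of the electron supply with LPS (0.09).

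The genes nearest in pattern over the 12 libraries were found among 8618 others with a mean of at least 10 CPM, by the root mean square difference of centred log2 CPM. CYB5A (0.19) was nearest to SCD, followed by PPARG (0.19). Nearest to FADS1 were CLMN (0.23), EMILIN2 (0.23) and MOXD1 (0.25), and nearest to FADS2 were SRPX (0.15), HSPG2 (0.16) and LAMA4 (0.19). Within the 10 genes, ELOVL5 ranked 6 for FADS2 (0.20) and 44 for SCD (0.31). FADS2 ranked 116 for FADS1 (0.55), farther than SCD at 95 (0.53).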

How the data were processed

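RNA was sequenced from 12 libraries of ASC52telo adipocytes. The authors pseudoaligned reads to human transcriptomes (GRCh38) with kallisto 0.44.0 (per the labels and the paper), and the deposited values are estimated counts summed per gene name, which are whole numbers and not normalized for depth or length. The annotation release and the strand setting are not given in the sources used here. A row without a gene name (0.235% to 0.306% of a library's counts) was left out.

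Genes with at least 10 counts in total in a comparison were kept, libraries were scaled by TMM, and each gene was tested with the quasi-likelihood F test of edgeR 4.0.16 (R 4.3.3), adjusting p-values by Benjamini-Hochberg over all genes tested. Standard errors (SE) of log2 fold changes were computed as the absolute change over the square root of F. The 4 comparisons used 6 libraries each and the interaction used 12. Depth was 28381782 to 53837400 counts a library, and genes of low counts such as ELOVL4 and ELOVL2 are limited by it.

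Ratios were taken on counts within a library, as log2 after adding 0.5, and tested by exact two-sided permutation of libraries (SciPy 1.17.1). Levels between genes were divided by the canonical transcript length in GENCODE 44. Promoter sequences are RefSeq's. Alternatives were DESeq2 1.42.0 (DESeq2 being the authors' tool), other scalings, other filters, all 12 libraries in 1 fit, the replicate number as a block, a pseudocount of 5 for ratios, other transcript lengths, and each library left out. The fits were tested on simulated counts.

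The 10 genes and the other gene lists were chosen with earlier results of these data known. The genes named from other lists were, for each comparison, up to 2 per list with the largest fold change among those past the adjusted p, without overlap between groups and with at least 50 counts a library on average, and SREBF1, SREBF2, PPARG, FASN, ADIPOQ, PLIN1 and FABP4 in any case. Others named with a list's count (for example HACD3, or DEGS1 with LPS) were chosen after their values were seen. Some genes and sequences are not reported here.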

Additional observations from a re-analysis of the deposited data

Results flagged for a closer look

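The effect of KD differed between cells with and without LPS for FADS1 by -0.99 on the log2 scale (interaction over 12 libraries, adjusted p = 0.0256, edgeR's quasi-likelihood test), with every KD library below every scramble library in both settings. That call was lost in 8 of 12 fits with a single library left out (adjusted p up to 0.0889, same edgeR test). For INSIG1, which holds SREBP in the endoplasmic reticulum, the difference was 0.90 (adjusted p = 0.0153, edgeR): its log2 fold change in KD was -0.26 without LPS and 0.64 with LPS. For STARD4, a sterol carrier, the difference was 0.78 (adjusted p = 0.0463, edgeR), with -1.83 without LPS and -1.05 with LPS. INSIG1 was uneven in scramble, at 155, 227 and 231 CPM. The fits of INSIG1 and STARD4 were not repeated with libraries left out.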

How the results depend on the processing

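The 6 genes called lower in KD kept their calls and direction in every alternative run, with and without LPS, and the log2 ratios moved by less than the spread between replicates. Of 45 log2 fold changes (9 genes in 5 tests), 29 kept their side of the threshold and their direction throughout. Numbers of the 10 genes called changed as follows. In KD without LPS the 1 higher call (ELOVL4) became 0 with all 12 libraries in 1 fit and under the replicate block, and 0 to 1 with single libraries left out. With LPS in scramble, the 2 higher calls became 1 with library size only, 1 with DESeq2, 3 without a filter on low counts and with all 12 libraries in 1 fit (FADS1 gained, adjusted p = 0.0115 and 0.0494, edgeR), 5 higher and 1 lower with the replicate block, and 0 to 4 higher and 0 to 1 lower with single libraries left out. With LPS in KD, the 2 lower calls became 3 without a filter on low counts, with the replicate block and without KD replicate 3 or KD LPS replicate 1, SCD being gained. The 1 interaction became 3 without a filter on low counts, 2 with DESeq2 and 0 to 2 with single libraries left out. The cause was not tested. Whether equal replicate numbers mark paired libraries is not known. No comparison had a correlation of deviations from the group mean over 0.1 for every number, but such correlations over many genes cannot exclude pairing. SCD fell from replicate 1 to replicate 3 both in KD and in KD with LPS. The replicate block changed no call other than those counted above, among them SCD in LPS in KD (-0.48, adjusted p = 7.60e-11, edgeR).

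Directions of log2 fold changes reversed only where these were not past the threshold. With library size only, SCD5 in KD without LPS was 0.053, ELOVL5 after LPS in KD was -0.043 and the interaction of ELOVL1 was -0.0037. With single libraries left out, these ranged from -0.15 to 0.087, from -0.058 to 0.061 and from -0.062 to 0.11, and the interactions of FADS3 and ELOVL4 from -0.18 to 0.066 and from -0.36 to 0.17. Some log2 ratios whose groups overlapped also changed sign in this way. They were SCD to ELOVL6 in KD without LPS (-0.32 to 0.053) and SCD to SCD5 with LPS in scramble (-0.096 to 0.47). With LPS in KD, so did SCD (-0.054 to 0.20), FADS1 (-0.20 to 0.30) and ELOVL6 (-0.56 to 0.066) to the adipocyte markers. Levels per kb in scramble depend on the length taken. By summed exon length they were 247 CPM per kb for ELOVL5, 75.5 for FADS1, 32.0 for FADS3, 29.1 for ELOVL1, 22.6 for FADS2, 9.70 for ELOVL6 and 4.99 for SCD5, and by the longest transcript 47.0 for FADS2, 44.9 for ELOVL1 and 37.8 for FADS3. Depth limits ELOVL4 (34 to 184 counts a library) and ELOVL2.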
